A study of Mus musculus with 6 samples.

Results

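The 7 genes followed here belong to the Eph receptor and ephrin family and were read in the accessible chromatin of mouse intestinal organoids, epithelial cultures grown from crypts that form crypt-like structures. They are the receptor genes Ephb2, Ephb3, Ephb4, Epha1 and Epha2 and the ligand genes Efna1 and Efnb2. A peak, an interval of open chromatin in the consensus set, was taken as a member when its centre lay within 50 kb of an end of 1 of these genes and nearer to it than to any other protein-coding gene. This gave 68 of 90823 peaks, and these 7 genes are among 16827 genes that received at least 1 peak. Ephb2 held 17 of them, Ephb3 16, Efnb2 12, Epha2 11, Efna1 5, Ephb4 4 and Epha1 3. Of the 68 peaks, 29 had their centre inside the gene, 20 lay upstream and 19 downstream, 8 held an annotated start site, and 56 were not within 1 kb of either end of a gene. The low-count filter removed 1 Ephb2 peak of 186 bp, so 67 members were tested.

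The assay was ATAC-seq, which marks open DNA by the places where a transposase can insert adapters, with 2 libraries per group. Values by library are CPM, counts scaled to a common library total, given for libraries 1 and 2 of each group. The groups were organoids given 25 µM arachidonic acid (AA), the fatty acid from which prostaglandins are made, organoids given 50 nM prostaglandin E2 (PGE2), and organoids given vehicle, each for 3 days. The treatment protocol writes PGE2 and the design text names a dimethyl form of it. The sources used here give no genotype, strain or age for the mice. All groups were grown in Matrigel with EGF, Noggin, R-spondin, CHIR-99021, an inhibitor of GSK3 that activates Wnt signalling, and Y-27632, a kinase inhibitor, so the vehicle organoids also carried these. Intestinal epithelial cells were sorted before the Omni-ATAC reaction. Nothing in the labels says that the 2 libraries of a group came from separate cultures, so the p-values measure only the spread between these libraries, which may be technical. Fewer cells of a type and less accessibility per cell cannot be told apart in these bulk libraries.

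Libraries held 12374232 to 14236985 counts in peaks, of which 17280 to 20347 fell in member peaks. Peaks touching the 1 kb around an end of a protein-coding gene, called gene-end peaks below, took 35.3% and 35.8% of the counts in the AA libraries, 37.4% and 38.9% in the PGE2 libraries and 34.8% and 34.3% in the vehicle libraries. The epithelial origin was read from the highest gene-end peak of each marker gene. Of 8 epithelial markers 7 had such a peak (Krt20 had none), with summed levels of 522.4 to 528.5 CPM with AA, 528.5 to 531.4 CPM with PGE2 and 548.2 to 549.6 CPM with vehicle. Single markers differed in direction. With PGE2 Krt8 held 154.1 and 153.9 CPM, against 184.2 and 190.0 with vehicle, while Cdh1 held 54.0 and 52.9 CPM, against 39.4 and 39.4. Of 5 endothelial markers only Kdr had a gene-end peak, at 3.1 to 3.73 CPM with AA, 2.82 to 3.47 CPM with PGE2 and 3.28 to 3.52 CPM with vehicle, and Pecam1, Cdh5, Tek and Tie1 had none. Of 6 stromal markers only Col1a1 had such a peak, at 13.1 to 13.2 CPM with AA, 14.0 to 14.1 CPM with PGE2 and 14.3 to 14.7 CPM with vehicle. Of 5 immune markers only Itgam had such a peak, at 15.6 to 19.5 CPM with AA, 17.4 to 19.0 CPM with PGE2 and 13.6 to 15.0 CPM with vehicle, and its part in the results was not tested.

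Eph receptors are receptor tyrosine kinases whose ligands, the ephrins, sit on the membrane of neighbouring cells, A ephrins through a lipid anchor and B ephrins through a transmembrane segment with a cytoplasmic tail. Contact between cells therefore signals in both directions, forward through the receptor's kinase and in reverse through the ephrin, and often ends in repulsion and the sorting of cells. In the intestine, Ephb2 and Ephb3 are known as genes activated by Wnt signalling in crypt cells, and the B ephrins are known on differentiated cells towards the villus, an opposition that keeps Paneth cells and progenitors in place. Epha2 is the receptor best known for binding the product of Efna1, and Ephb4 that best known for binding the product of Efnb2, a pair studied mostly in vessels.

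The start sites carry much of what follows, and the promoter windows of 4 genes are shown for that reason. The start-site peaks of these 4 were called against vehicle both with AA and with PGE2. The windows of Epha1, called with PGE2 only, and of the inner start site of Efna1, called with AA only, are not shown. Each window runs from 250 bases before to 50 bases after the start site, 5′ to 3′ on the strand of the gene, from RefSeq on assembly GRCm38.p6. Capitals mark letters that match a searched motif on either strand.
Ephb2 (chr4:136835963-136836262, minus strand): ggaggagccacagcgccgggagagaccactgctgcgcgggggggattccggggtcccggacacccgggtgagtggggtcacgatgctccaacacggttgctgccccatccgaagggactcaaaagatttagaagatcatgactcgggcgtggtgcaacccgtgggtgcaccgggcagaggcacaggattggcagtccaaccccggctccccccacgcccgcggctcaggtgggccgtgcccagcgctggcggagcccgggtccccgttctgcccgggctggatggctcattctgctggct
Ephb3 (chr16:21204545-21204844, plus strand): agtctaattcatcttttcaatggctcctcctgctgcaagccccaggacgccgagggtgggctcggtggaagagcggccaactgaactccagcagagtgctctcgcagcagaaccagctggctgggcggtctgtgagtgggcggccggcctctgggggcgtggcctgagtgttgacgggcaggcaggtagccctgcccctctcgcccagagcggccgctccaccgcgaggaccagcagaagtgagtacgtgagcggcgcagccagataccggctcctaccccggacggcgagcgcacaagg
Epha2 (chr4:141300971-141301270, plus strand): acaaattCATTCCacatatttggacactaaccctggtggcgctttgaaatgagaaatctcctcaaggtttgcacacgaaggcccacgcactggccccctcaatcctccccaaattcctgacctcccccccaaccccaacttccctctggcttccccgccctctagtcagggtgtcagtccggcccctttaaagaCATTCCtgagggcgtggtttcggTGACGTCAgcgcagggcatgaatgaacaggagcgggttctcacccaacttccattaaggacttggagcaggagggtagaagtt
Efnb2 (chr8:8661193-8661492, minus strand): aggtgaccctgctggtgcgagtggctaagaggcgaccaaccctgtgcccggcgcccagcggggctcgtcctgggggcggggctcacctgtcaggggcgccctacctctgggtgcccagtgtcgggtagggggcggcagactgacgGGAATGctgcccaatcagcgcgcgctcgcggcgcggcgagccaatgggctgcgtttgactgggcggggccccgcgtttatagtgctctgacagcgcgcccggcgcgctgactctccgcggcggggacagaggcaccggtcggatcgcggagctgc

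The 4 listed motifs were searched on both strands of the 8 windows that belong to the member genes' start-site peaks and of 32851 RefSeq promoter windows of the same length. GGAATG, the core bound by TEAD factors, was in 3 of the 8 windows, those of Epha1, Epha2 and Efnb2, and in 14.7% of all windows. In Efnb2 it began 105 bases before the start site, and in Epha2 its reverse complement began 243 and 56 bases before it. TGACGT, the core of the cAMP response element, was in 1 of 8 windows and in 7.51% of all windows, and in Epha2 it matched both strands in overlapping letters that began 33 bases before the start site. CTTTGAT, bound by TCF and LEF factors, was in 0 of 8 windows and in 3.73% of all, and TGANTCA, bound by AP-1, in 0 of 8 and in 7.81% of all. The Epha2 peak covered 143 bases of the 300-base window, those nearest the gene, which take in the matches at 56 and 33 bases. The windows of Ephb2 and Ephb3, shown above, held none of the 4 motifs.

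In vehicle organoids the start-site peaks differed several-fold in level per kb of peak. Ephb3 stood highest at 62.6 ± 0.922 CPM per kb (SD, n = 2), followed by the outer start site of Efna1 at 60.1 ± 1.92, Ephb4 at 34.4 ± 0.0897, Efnb2 at 32.2 ± 1.73, the inner start site of Efna1 at 30.9 ± 0.827, Epha2 at 24.9 ± 1.96, Epha1 at 15.4 ± 0.632 and Ephb2 at 13.4 ± 0.628. The libraries of neighbours in this order did not overlap, except those of Efnb2 and the inner start site of Efna1. In AA organoids Efnb2 was at 40.9 ± 2.3 CPM per kb and Ephb4 at 33.2 ± 1.16, and in PGE2 organoids Efnb2 was at 45.1 ± 2.26 and Ephb4 at 35.8 ± 0.617, so Efnb2 stood above Ephb4 in both. Ephb3 stayed first in all 3 groups. Ephb2 was last in PGE2 and vehicle organoids, while in AA organoids its libraries overlapped those of Epha1.

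AA against vehicle asks where the fatty acid altered accessibility. By edgeR's quasi-likelihood test with Benjamini-Hochberg adjustment over 89347 peaks and a threshold of 0.05, 16 member peaks rose and 4 fell, 23.9% and 5.97% of the 67 tested. Of all peaks 16.7% were called higher and 13.8% lower (14911 and 12370 peaks, or 13725 and 14324 when scaled by library totals). The risen peaks were 5 at Epha2, 3 each at Ephb2, Efna1 and Efnb2 and 2 at Ephb3, and the fallen ones were 2 at Ephb3 and 1 each at Ephb2 and Epha2. The 17 peaks of the ligand genes gave 6 higher and 0 lower by edgeR, with 0 lower by DESeq2 and 0 at an unadjusted p under 0.05, while the 50 of the receptor genes gave 10 higher and 4 lower. The median log2 change was -0.02 over the members and -0.02 over all peaks, with members between -0.87 and 1.36. DESeq2 called 6 of the 16 higher and 0 of the 4 lower peaks. Those 6 were also called under every other alternative run, namely the Ephb2 peak 41.4 kb inside the gene, the Epha2 peaks 3.17 and 19.48 kb upstream and 30.32 kb downstream of its start site, the Efnb2 start site and 1 peak downstream of Efnb2. DESeq2 gave no adjusted p for the Ephb2 peak 44.57 kb inside the gene in AA against PGE2. Apart from that peak, the 6 above, the Efnb2 start site with PGE2 and the Epha2 peak 19.48 kb upstream in AA against PGE2, every call of a member peak by edgeR was lost with DESeq2, which is not repeated at each peak. Scaled by library totals in place of TMM factors, 14 were higher and 7 lower, without vehicle replicate 2 the number of risen peaks was 10, and without AA replicate 2 that of fallen peaks was 1.

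PGE2 against vehicle used the same vehicle libraries, so the values with each treatment are set side by side below without counting what they share. By edgeR's quasi-likelihood test with Benjamini-Hochberg adjustment, 8 member peaks rose and 4 fell with PGE2, 11.9% and 5.97% of the 67. Of all peaks 14.3% were called higher and 10.6% lower (12809 and 9448 peaks, or 11526 and 12127 on library totals). Of the 8 risen peaks 5 held a start site, those of Ephb2, Ephb3, Epha1, Epha2 and Efnb2, and the remaining 3 lay at Ephb3, Epha2 and Efnb2. The fallen peaks were 2 at Ephb2 and 1 each at Ephb3 and Epha2. The median log2 change was 0.005 over the members and -0.002 over all peaks. DESeq2 called 1 of these 12 peaks, the Efnb2 start site. The counts were 6 higher and 7 lower on library totals, 8 and 6 with gene-end peaks scaled separately, 4 and 1 without vehicle replicate 2, and 7 and 7 without PGE2 replicate 1.

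**Figure D1:**
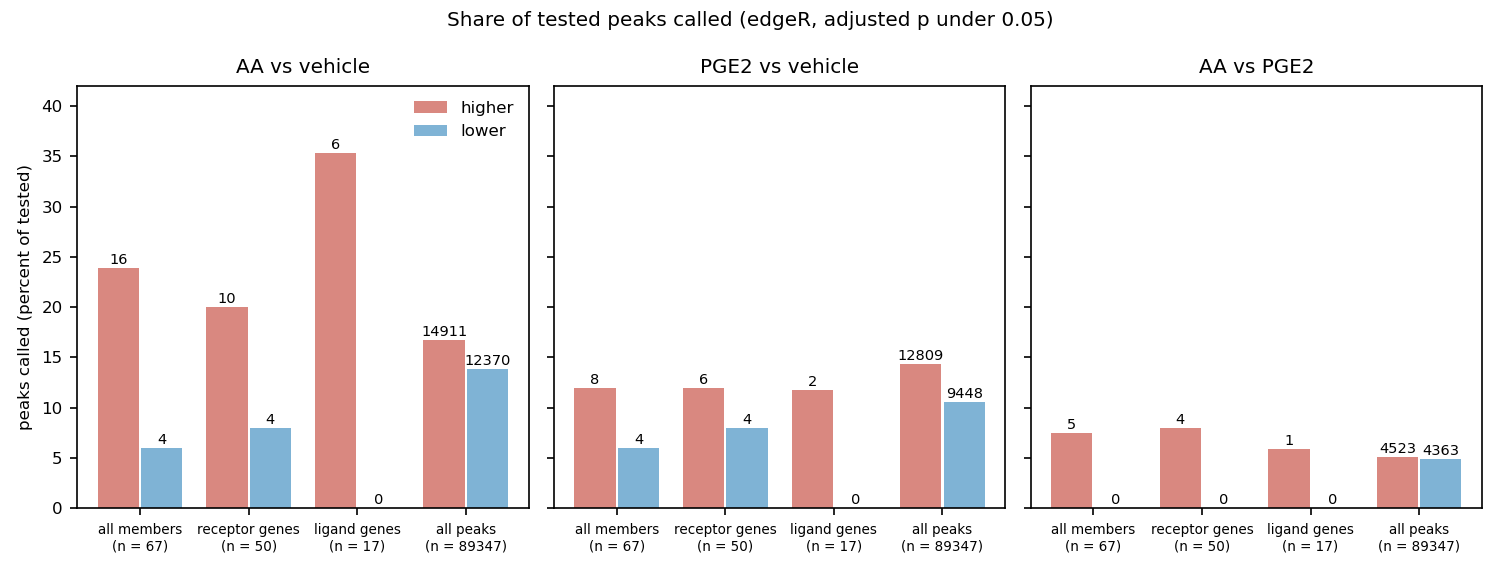
Share of tested peaks called higher or lower (percent of tested, vertical axis, with the number of peaks above each bar) among all members, peaks of receptor genes, peaks of ligand genes and all peaks, for each comparison. With AA 16 members were called higher and 4 lower, with PGE2 8 and 4, and in AA against PGE2 5 and 0.

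At the start-site peaks edgeR called 5 of 8 higher and 0 lower with AA, and also 5 of 8 and 0 with PGE2, where 14.6% of all gene-end peaks were called higher and 8.11% lower with AA, and 31.0% higher and 5.58% lower with PGE2. DESeq2 called 1 of the 8 start sites higher with either treatment, that of Efnb2, and 0 lower, and at an unadjusted p under 0.05 by edgeR 0 were lower. Gene-end peaks as a whole had a median log2 change of 0.05 with AA and 0.13 with PGE2, the background beside which the values at start sites stand. This background also takes in the far ends of genes, so it is wider than start sites. Members had further gene-end peaks, at the far ends of Ephb4, Epha1 and Epha2 and 1.56 kb into Efnb2. With all peaks scaled together, none of those was called against vehicle. When gene-end peaks were scaled apart from the rest, the calls with AA were kept at the 5 start sites. Those with PGE2 were lost at Ephb2 (adjusted p = 0.0668 by edgeR), Ephb3 (0.518) and Epha2 (0.722) and kept at Epha1 (0.046) and Efnb2 (1.04e-04). Under that scaling the outer start site of Efna1 was called lower with PGE2 (log2 -0.16, adjusted p = 0.0202, edgeR). In AA against PGE2 with all peaks scaled together, 0 of the 8 start-site peaks were called by edgeR and 0 by DESeq2. At an unadjusted p under 0.05 by edgeR 2 passed, both lower with AA. Of all gene-end peaks 1.77% were called higher and 16.3% lower. With gene-end peaks scaled apart, the outer start site of Efna1 was called higher with AA than with PGE2 (log2 0.23, adjusted p = 0.00312, edgeR).

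**Figure D2:**
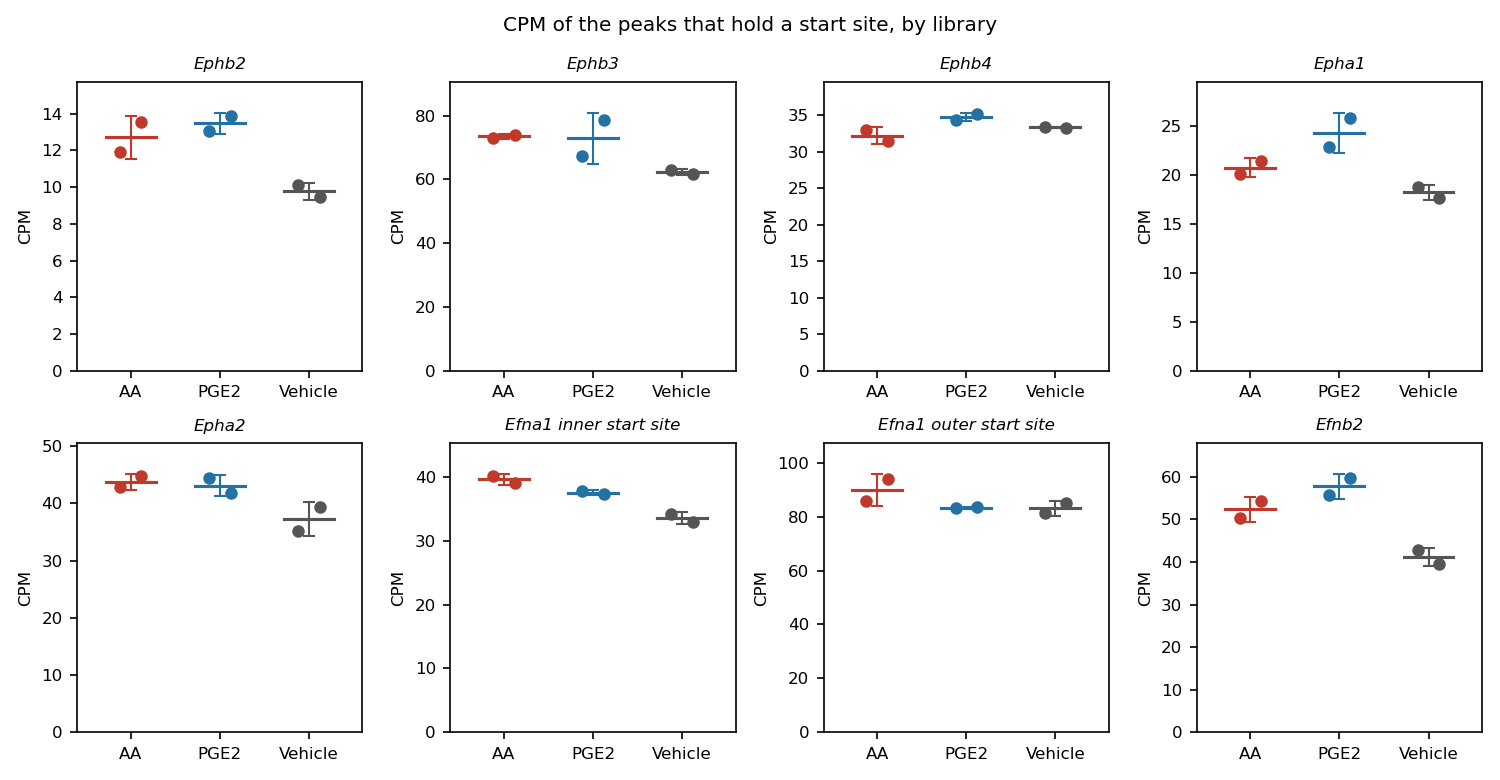
CPM (vertical axis) of the 8 member peaks that hold a start site in the AA, PGE2 and vehicle libraries. Points are libraries, lines the mean and bars the SD of 2 libraries. At Efnb2 the AA libraries reached 50.2 and 54.4, the PGE2 libraries 55.7 and 59.8 and the vehicle libraries 42.7 and 39.6 CPM, while the 3 groups at Ephb4 lay between 31.4 and 35.2 CPM.

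Ephb2, the crypt receptor that Wnt signalling activates, spans chr4:136647536-136836326 on the minus strand, and its peaks moved in opposite directions. At the start site (chr4:136835965-136836693) accessibility was 11.9 and 13.5 CPM with AA, 13.1 and 13.9 with PGE2 and 10.1 and 9.46 with vehicle. Both treated groups stood above vehicle, with log2 changes of 0.37 ± 0.12 with AA (SE, adjusted p = 0.0171, edgeR) and 0.46 ± 0.12 with PGE2 (adjusted p = 0.00366, edgeR). The call with AA was lost without vehicle replicate 2 or AA replicate 2, and that with PGE2 without vehicle replicate 2. That with PGE2 was also lost with gene-end peaks scaled separately (adjusted p = 0.0668, edgeR). Just upstream, 2.11 kb before the start site, the peak chr4:136837927-136838321 held 14.6 and 12.3 CPM with AA, 15.8 and 15.3 with PGE2 and 17.8 and 18.2 with vehicle. It fell with AA by 0.41 ± 0.11 (log2, SE, adjusted p = 0.00286, edgeR). The log2 change was -0.21 ± 0.11 with PGE2 (adjusted p = 0.143, edgeR), with all 4 treated libraries below both vehicle libraries. Without AA replicate 2 the fall with AA was not called.

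Inside Ephb2 a pair of neighbouring peaks rose with AA. The peak chr4:136794300-136794915, 41.4 kb from the start site, held 10.4 and 11 CPM with AA, 8.93 and 7.72 with PGE2 and 6.82 and 6.49 with vehicle. The AA libraries were the highest and the vehicle libraries the lowest. There was a 1.61-fold rise with AA (log2 0.69 ± 0.14, SE, adjusted p = 1.19e-04, edgeR). PGE2 gave 0.32 ± 0.15 (adjusted p = 0.0982, edgeR) and was called higher with gene-end peaks scaled separately (adjusted p = 0.0488, edgeR). The weaker peak chr4:136791328-136791561 held 3.1 and 3.1 CPM with AA, 1.91 and 1.16 with PGE2 and 1.99 and 1.91 with vehicle. It was the only Ephb2 peak called between the treatments, 2.01-fold higher with AA than with PGE2 (log2 1.01 ± 0.28, SE, adjusted p = 0.0136, edgeR). Its PGE2 libraries differed from each other, and the call was lost without AA replicate 1, AA replicate 2 or PGE2 replicate 2. Against vehicle it passed narrowly with AA (log2 0.67 ± 0.26, SE, adjusted p = 0.0483, edgeR) and was lost on library totals and without any of the 4 AA and vehicle libraries.

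A pair of Ephb2 peaks fell with PGE2. The peak chr4:136678564-136679093, deep inside the gene and 157.18 kb from the start site, held 4.43 and 4.89 CPM with AA, 4.04 and 3.86 with PGE2 and 5.74 and 6.64 with vehicle. The fall with PGE2 was 0.65 ± 0.18 (log2, SE, adjusted p = 0.00532, edgeR) against -0.41 ± 0.17 with AA (adjusted p = 0.0612, edgeR). On library totals the fall with AA was called as well (adjusted p = 0.0424, edgeR). The peak chr4:136852121-136853344, 16.72 kb upstream, held 26.9 and 23.7 CPM with AA, 22.5 and 23.8 with PGE2 and 28.9 and 29.3 with vehicle. The fall with PGE2 was 0.33 ± 0.09 (log2, SE, adjusted p = 0.00435, edgeR). Vehicle libraries were the highest at both, and neither fall was called without vehicle replicate 2. The strongest Ephb2 peak, chr4:136801429-136803239, held 83 and 81.3 CPM with AA, 80.2 and 75.8 with PGE2 and 76.2 and 78.3 with vehicle and was called in no comparison. A further 16 peaks lay inside Ephb2 more than 50 kb from either end and are not members. Of these, 4 were called lower and 0 higher with AA, and 2 lower and 0 higher with PGE2 (edgeR, where an unadjusted p under 0.05 gave 1 higher with AA and 0 with PGE2, and DESeq2 called 0 in either direction), with median log2 changes of -0.27 with AA and -0.34 with PGE2. Lower calls were 25.0% of the 16 with AA, where 13.8% of all peaks were called lower, and 12.5% with PGE2, near the 10.6% of all peaks.

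**Figure D3:**
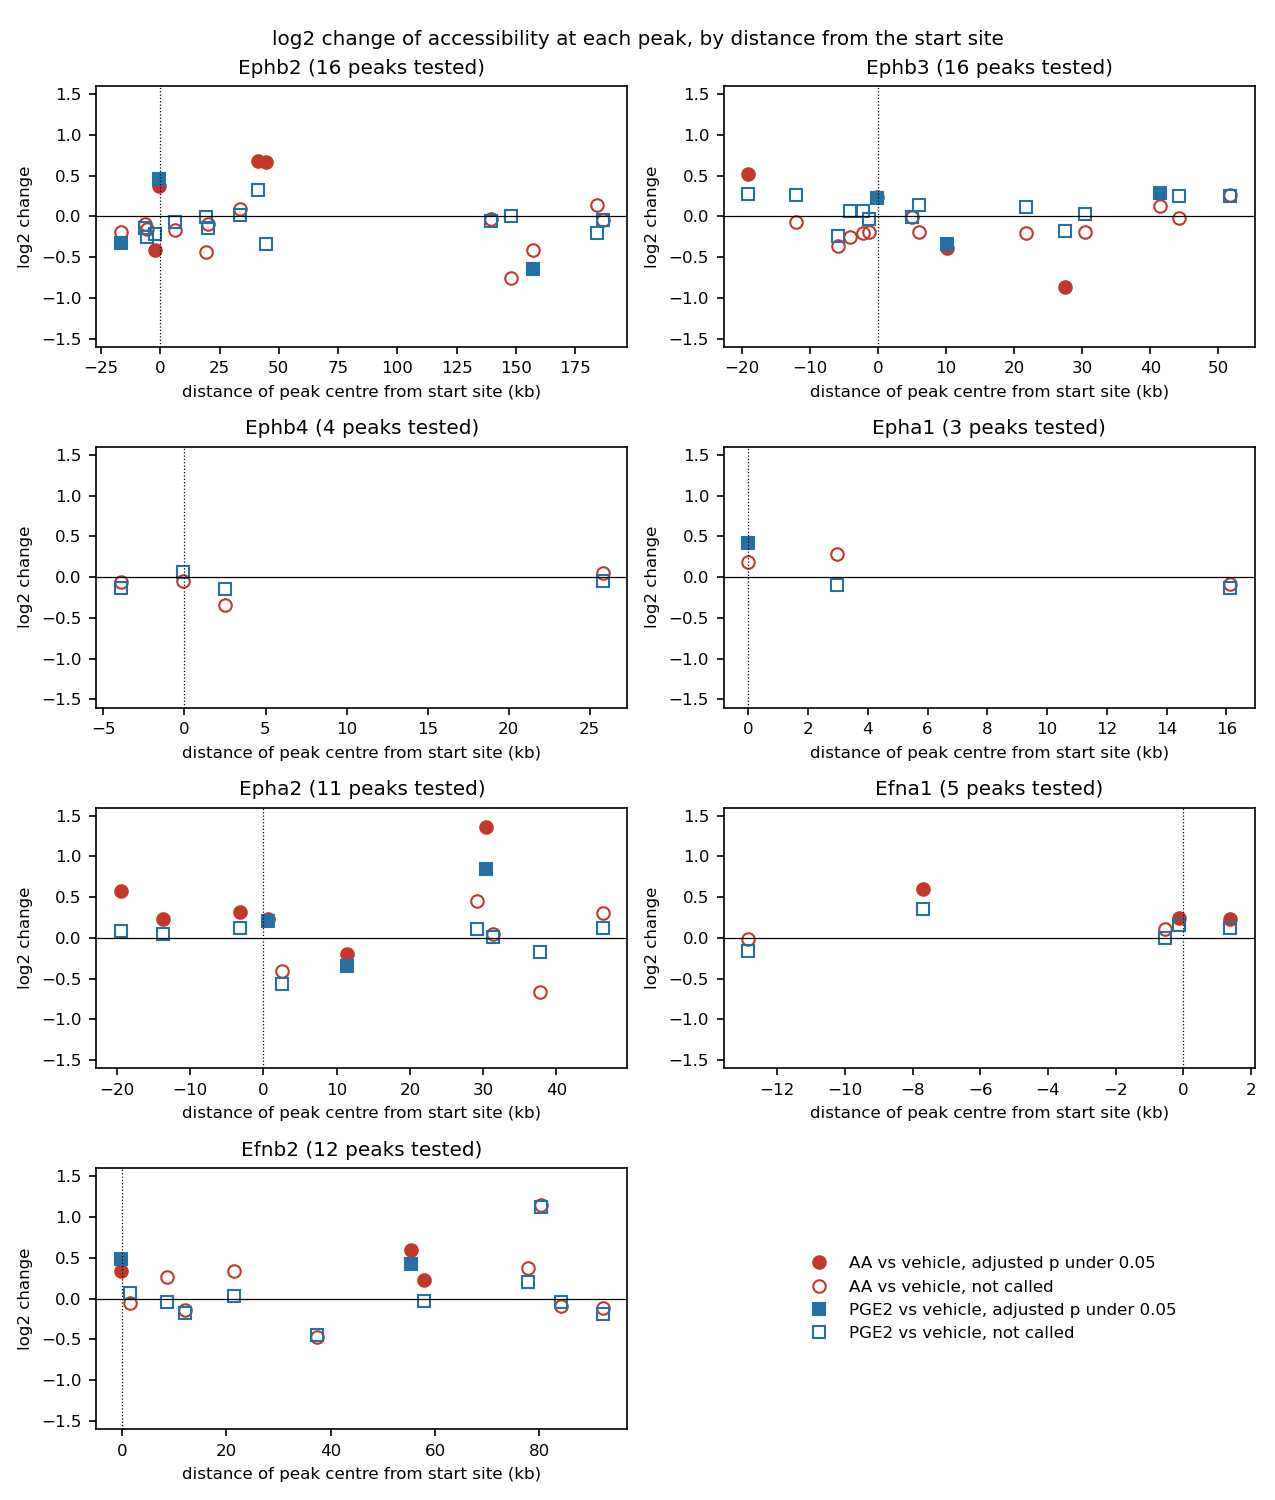
log2 change (vertical axis) of each tested member peak against the distance of its centre from the gene's start site in kb (horizontal axis, positive towards the gene), for AA against vehicle (red circles) and PGE2 against vehicle (blue squares), filled where called. The largest called change is 1.36 with AA at the Epha2 peak 30.32 kb from the start site.

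Ephb3, the receptor known for placing Paneth cells, spans chr16:21204620-21223309 on the plus strand. Its strongest peak was the start site (chr16:21204158-21205154), with 73 and 74.1 CPM with AA, 67.2 and 78.6 with PGE2 and 63 and 61.7 with vehicle. All treated libraries were above both vehicle libraries, with log2 0.24 ± 0.06 with AA (SE, adjusted p = 0.00278, edgeR) and 0.23 ± 0.06 with PGE2 (adjusted p = 0.00569, edgeR). Without vehicle replicate 2 neither was called, and without PGE2 replicate 2 the rise with PGE2 was not called either. With gene-end peaks scaled separately the rise with PGE2 was lost as well (log2 0.06, adjusted p = 0.518, edgeR). A peak 10.19 kb into the gene (chr16:21214475-21215497) went the other way, with 16.8 and 17.6 CPM with AA, 17.6 and 18.1 with PGE2 and 22.2 and 22.9 with vehicle. It fell by 0.39 ± 0.10 with AA (log2, SE, adjusted p = 0.00157, edgeR) and by 0.34 ± 0.10 with PGE2 (adjusted p = 0.00727, edgeR, not called without vehicle replicate 2).

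Outside Ephb3, the peak 19.13 kb upstream (chr16:21185361-21185960) held 7.6 and 7.59 CPM with AA, 6.56 and 6.25 with PGE2 and 5.44 and 5.11 with vehicle. It rose 1.44-fold with AA (log2 0.53 ± 0.16, SE, adjusted p = 0.00797, edgeR, not called without vehicle replicate 2). The groups did not overlap, and PGE2 lay between AA and vehicle at 0.28 ± 0.16 (adjusted p = 0.216, edgeR). The largest called change at Ephb3 was downstream, at chr16:21232118-21232383, a weak peak with 1.97 and 1.55 CPM with AA, 2.9 and 2.85 with PGE2 and 2.99 and 3.51 with vehicle. It fell by 0.87 ± 0.26 with AA (log2, SE, adjusted p = 0.00788, edgeR). The log2 change was -0.17 ± 0.23 with PGE2 (adjusted p = 0.638, edgeR), and the call with AA was lost without vehicle replicate 2 or AA replicate 2. Further out, 41.38 kb from the start site, chr16:21245592-21246761 held 19.9 and 18.4 CPM with AA, 22.1 and 20.8 with PGE2 and 17.8 and 17.2 with vehicle. It rose with PGE2 by 0.29 ± 0.10 (log2, SE, adjusted p = 0.0235, edgeR, not called on library totals or without vehicle replicate 1, vehicle replicate 2 or PGE2 replicate 1). The 11 other Ephb3 peaks were called in no comparison with vehicle, and 0 of 16 were called between AA and PGE2 by edgeR or by DESeq2, with 5 lower with AA at an unadjusted p under 0.05.

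Ephb4, on chr5:137350109-137374522 on the plus strand, had 4 peaks and 0 were called in any of the 3 comparisons by edgeR or by DESeq2, with 1 lower with AA than with vehicle at an unadjusted p under 0.05. Its start site (chr5:137349510-137350479) held 33 and 31.4 CPM with AA, 34.3 and 35.2 with PGE2 and 33.4 and 33.3 with vehicle. The log2 changes were -0.05 ± 0.08 with AA and 0.06 ± 0.08 with PGE2 (SE, adjusted p = 0.681 and 0.617, edgeR). These values do not show that the promoter was unaltered. The peak beyond its far end (chr5:137375309-137376551) held 15.1 and 13.9 CPM with AA, 14.3 and 12.8 with PGE2 and 14.9 and 13.1 with vehicle, with overlapping groups.

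Epha1, the first Eph receptor gene to be described, spans chr6:42358487-42373314 on the minus strand and had 3 peaks. Its start site (chr6:42372700-42373885) held 20.1 and 21.5 CPM with AA, 22.8 and 25.8 with PGE2 and 18.8 and 17.7 with vehicle. The PGE2 libraries were the highest and the vehicle libraries the lowest. There was a 1.33-fold rise with PGE2 (log2 0.41 ± 0.10, SE, adjusted p = 0.00102, edgeR). AA gave 0.18 ± 0.10 (adjusted p = 0.155, edgeR). The difference between AA and PGE2 there was -0.23 ± 0.09 and did not pass (adjusted p = 0.119, edgeR), so the call with PGE2 is not shown to be particular to it. At the far end, chr6:42356720-42357531 held 18.9 and 19.5 CPM with AA, 17.2 and 19.8 with PGE2 and 19.5 and 21.1 with vehicle and was called in no comparison. With gene-end peaks scaled separately its log2 change with PGE2 was -0.30 and was called lower (adjusted p = 0.0165, edgeR).

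Epha2, the receptor for the product of Efna1, spans chr4:141301221-141329384 on the plus strand, and its upstream peaks separated AA from the other groups. Its strongest peak, 13.68 kb upstream (chr4:141286778-141288304), held 107 and 107 CPM with AA, 97.2 and 91.3 with PGE2 and 92 and 90.0 with vehicle. The AA libraries stood above all others, a rise of 0.23 ± 0.05 against vehicle (log2, SE, adjusted p = 4.35e-04, edgeR). Against PGE2 the rise was 0.18 ± 0.05 (adjusted p = 0.0162, edgeR, not called with DESeq2 or without AA replicate 1, AA replicate 2 or PGE2 replicate 2). PGE2 against vehicle gave 0.05 ± 0.05 (adjusted p = 0.535, edgeR). Next to it, 19.48 kb upstream, chr4:141281141-141282336 held 34.4 and 35.7 CPM with AA, 26.2 and 23.5 with PGE2 and 24.4 and 22.7 with vehicle. AA was 1.49-fold above vehicle (log2 0.57 ± 0.08, SE, adjusted p = 7.14e-07, edgeR) and 1.41-fold above PGE2 (log2 0.49 ± 0.08, adjusted p = 1.06e-04, edgeR), calls kept under every alternative run, DESeq2 included, while the PGE2 and vehicle libraries overlapped.

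Closer to Epha2, 3.17 kb upstream, chr4:141297624-141298485 held 61.3 and 56.9 CPM with AA, 50.8 and 52.5 with PGE2 and 46.6 and 48.5 with vehicle. AA was again the highest, with 0.31 ± 0.06 against vehicle (log2, SE, adjusted p = 1.47e-04, edgeR, called under every alternative run) and 0.20 ± 0.06 against PGE2 (adjusted p = 0.0386, edgeR, lost with DESeq2, with gene-end peaks scaled separately and without vehicle replicate 2, AA replicate 1, AA replicate 2 or PGE2 replicate 1). The start site (chr4:141301128-141302619) held 42.8 and 44.7 CPM with AA, 44.3 and 41.7 with PGE2 and 35.1 and 39.3 with vehicle. The log2 changes were 0.23 ± 0.07 with AA (SE, adjusted p = 0.012, edgeR) and 0.21 ± 0.07 with PGE2 (adjusted p = 0.0288, edgeR). The treated groups overlapped each other there and stood above vehicle, whose libraries differed, and without vehicle replicate 1 neither was called (adjusted p = 0.229 with AA and 0.396 with PGE2, edgeR). The rise with AA was also lost without AA replicate 2, and that with PGE2 without PGE2 replicate 1 and on library totals. With gene-end peaks scaled separately the rise with PGE2 was lost as well (log2 0.04, adjusted p = 0.722, edgeR).

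Past the start site, chr4:141311979-141313203, 11.37 kb into Epha2, was lower in treated libraries, with 34 and 34.2 CPM with AA, 31.1 and 30.0 with PGE2 and 39.3 and 38.6 with vehicle. It fell by 0.35 ± 0.08 with PGE2 (log2, SE, adjusted p = 4.33e-04, edgeR), and with AA by 0.19 ± 0.07 (adjusted p = 0.0438, edgeR), a call lost under 7 of 13 alternatives. The largest called change at any member lay 30.32 kb from the start site, beyond the far end of the gene, at chr4:141331284-141331792, a weak peak with 6.26 and 6.12 CPM with AA, 3.89 and 4.78 with PGE2 and 2.68 and 2.14 with vehicle. All treated libraries were above both vehicle libraries, 2.57-fold with AA (log2 1.36 ± 0.20, SE, adjusted p = 7.85e-07, edgeR) and 1.8-fold with PGE2 (log2 0.85 ± 0.22, adjusted p = 0.00319, edgeR, not called without vehicle replicate 2 or PGE2 replicate 2). The difference between AA and PGE2 there was 0.51 ± 0.18 (adjusted p = 0.0533, edgeR). It was called on library totals (adjusted p = 0.0421, edgeR) and with RLE size factors in place of TMM factors (0.0463). The nearest peak to the gene's far end, chr4:141330165-141330612, held 3.24 and 2.04 CPM with AA, 2.44 and 1.77 with PGE2 and 1.3 and 2.59 with vehicle, with overlapping groups.

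**Figure D4:**
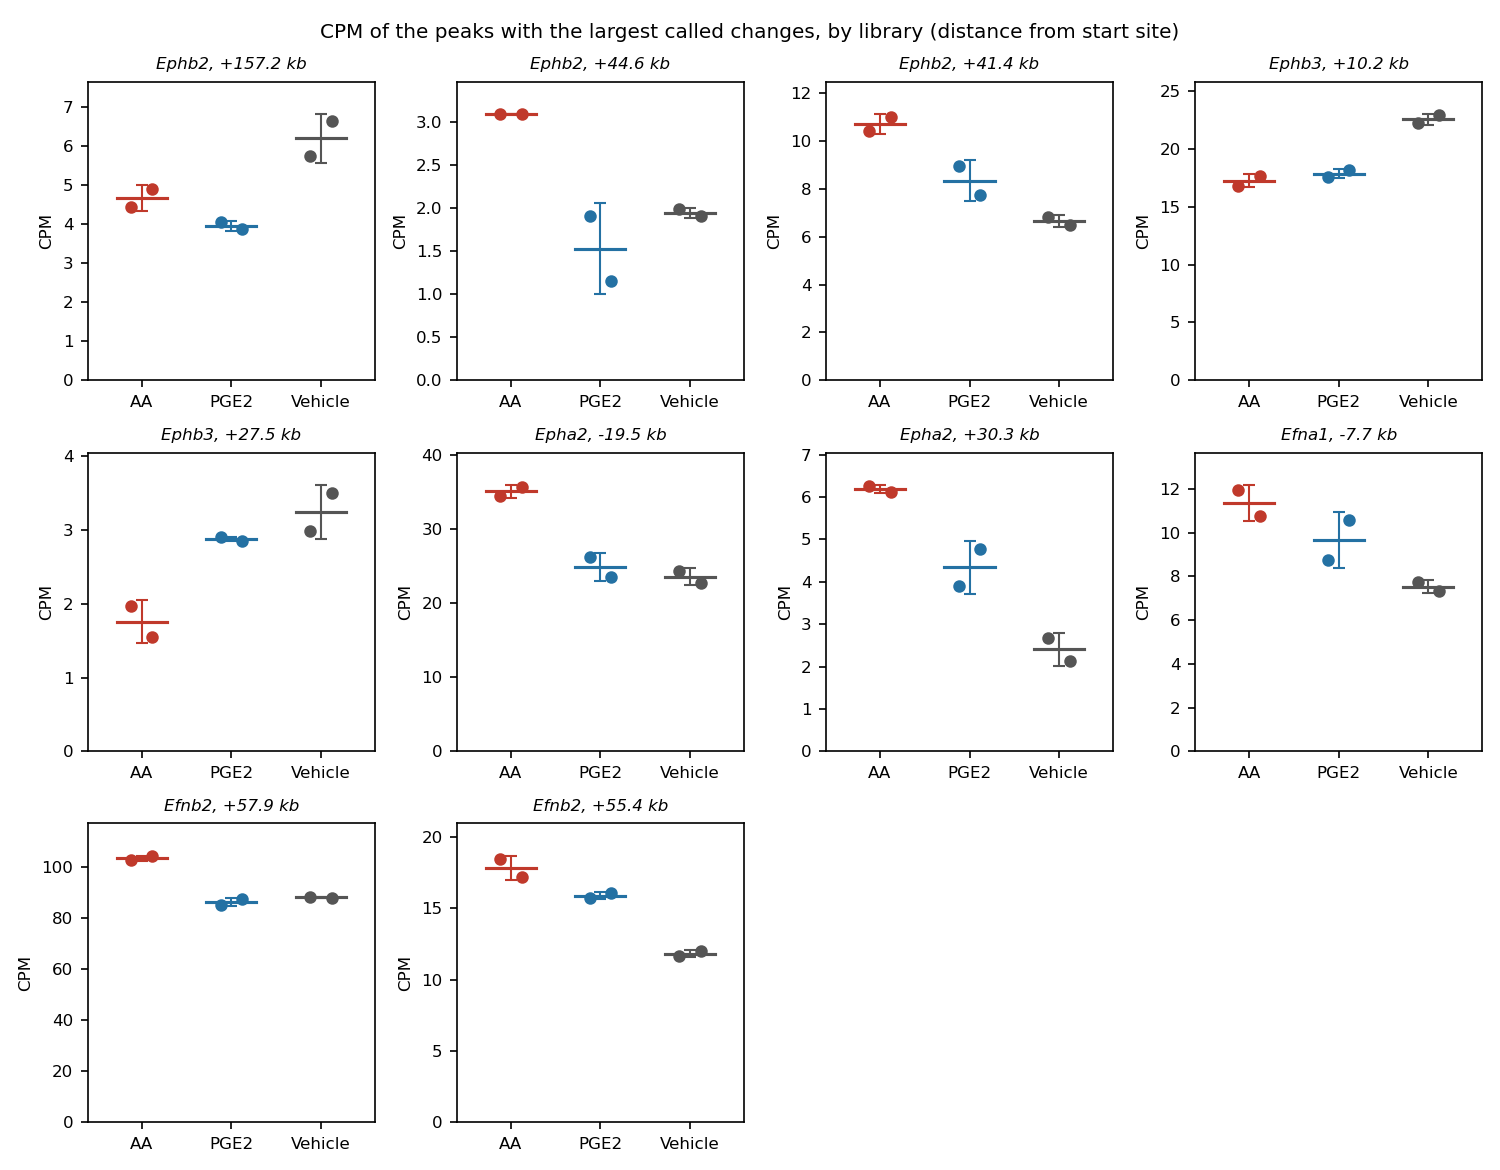
CPM (vertical axis) in the AA, PGE2 and vehicle libraries of the member peaks away from start sites that had the largest called change of their gene in a comparison, titled by gene and distance from the start site. Points are libraries, lines the mean and bars the SD of 2 libraries. At the Epha2 peak 19.5 kb upstream the AA libraries stand alone at 34.4 and 35.7 CPM, while at the Ephb3 peak 10.2 kb inside the gene both treated groups lie below vehicle.

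Efna1, which codes for the lipid-anchored ephrin that binds Epha2, spans chr3:89271730-89280951 on the minus strand and had 5 peaks, with a peak at each of a pair of annotated start sites. The inner start site (chr3:89279218-89280303) held 40.2 and 39 CPM with AA, 37.8 and 37.3 with PGE2 and 34.1 and 32.9 with vehicle. It rose with AA by 0.24 ± 0.07 (log2, SE, adjusted p = 0.00993, edgeR, not called without vehicle replicate 2 or AA replicate 1). PGE2 gave 0.16 ± 0.07 (adjusted p = 0.104, edgeR), with treated libraries above vehicle in each case. The outer start site (chr3:89280809-89282189), the strongest peak of the gene, held 85.8 and 94.1 CPM with AA, 83 and 83.6 with PGE2 and 81.2 and 84.9 with vehicle. It was called in no comparison, with 0.11 ± 0.06 with AA and 0.00 ± 0.06 with PGE2 (SE, adjusted p = 0.116 and 0.965, edgeR). With gene-end peaks scaled separately its log2 change with PGE2 became -0.16 and was called lower (adjusted p = 0.0202, edgeR). In AA against PGE2 that scaling gave 0.23, called higher (adjusted p = 0.00312, edgeR).

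Upstream of Efna1, 7.69 kb before the start site, chr3:89288346-89288931 held 12 and 10.8 CPM with AA, 8.78 and 10.6 with PGE2 and 7.73 and 7.32 with vehicle. The AA libraries were the highest and the vehicle libraries the lowest. There was a 1.51-fold rise with AA (log2 0.60 ± 0.13, SE, adjusted p = 5.30e-04, edgeR). PGE2 gave 0.36 ± 0.14 (adjusted p = 0.0517, edgeR) and was called higher with gene-end peaks scaled separately (adjusted p = 0.0215, edgeR). The peak chr3:89277875-89278632, 1.39 kb into the gene, held 29.3 and 25.4 CPM with AA, 26 and 24.9 with PGE2 and 23.1 and 23.6 with vehicle. It rose with AA by 0.24 ± 0.09 (log2, SE, adjusted p = 0.0401, edgeR), a call lost under 5 of 13 alternatives, library totals among them. With PGE2, 0 of 5 Efna1 peaks were called by edgeR with all peaks scaled together or by DESeq2, and 2 were higher and 1 lower at an unadjusted p under 0.05.

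Efnb2, which codes for a transmembrane ephrin of differentiated epithelium and the ligand of Ephb receptors, spans chr8:8617235-8661242 on the minus strand. Its start site (chr8:8660835-8662114) held 50.2 and 54.4 CPM with AA, 55.7 and 59.8 with PGE2 and 42.7 and 39.6 with vehicle. Every treated library was above both vehicle libraries, 1.27-fold with AA (log2 0.34 ± 0.07, SE, adjusted p = 1.01e-04, edgeR) and 1.4-fold with PGE2 (log2 0.49 ± 0.07, adjusted p = 3.41e-07, edgeR). Both calls were kept under every alternative run, DESeq2 and separate scaling of gene-end peaks included, and the difference between AA and PGE2 of -0.14 ± 0.07 did not pass (adjusted p = 0.166, edgeR). This is the window shown above with GGAATG 105 bases before the start site.

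Among the Efnb2 peaks downstream of the gene, only a pair was called. The strongest, chr8:8602528-8604149, 57.9 kb from the start site, held 102 and 104 CPM with AA, 85.1 and 87.4 with PGE2 and 88.2 and 88 with vehicle. AA alone stood apart, with 0.23 ± 0.05 against vehicle (log2, SE, adjusted p = 5.06e-04, edgeR) and 0.26 ± 0.05 against PGE2 (adjusted p = 6.66e-04, edgeR), calls lost only with DESeq2. PGE2 against vehicle gave -0.03 ± 0.05 (adjusted p = 0.729, edgeR). Its neighbour chr8:8605683-8605996 held 18.4 and 17.2 CPM with AA, 15.7 and 16.1 with PGE2 and 11.6 and 12 with vehicle. There both treatments were above vehicle, 1.51-fold with AA (log2 0.60 ± 0.11, SE, adjusted p = 2.97e-05, edgeR, called under every alternative run) and 1.34-fold with PGE2 (log2 0.43 ± 0.11, adjusted p = 0.00319, edgeR, lost with DESeq2). The peak next to the start site, 1.56 kb into the gene (chr8:8658929-8660425), held 21.8 and 22.1 CPM with AA, 24.9 and 23.2 with PGE2 and 22.8 and 22.9 with vehicle. It was called in no comparison, with log2 changes of -0.06 ± 0.09 with AA and 0.07 ± 0.09 with PGE2 (SE, adjusted p = 0.673 and 0.619, edgeR). The 8 other Efnb2 peaks were also called in no comparison.

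AA against PGE2 sets the fatty acid beside the prostaglandin. By edgeR's quasi-likelihood test with Benjamini-Hochberg adjustment 5 of 67 member peaks were higher with AA and 0 lower (DESeq2 called 1 higher and 0 lower). That is 7.46% and 0%, where 5.06% of all peaks were called higher and 4.88% lower. The 5 were 3 upstream peaks of Epha2, 1 inside Ephb2 and 1 downstream of Efnb2, all given above. At an unadjusted p under 0.05, 10 were higher and 7 lower with AA. Without AA replicate 1 or AA replicate 2 the number called higher was 2, and without PGE2 replicate 1 the number called lower was 2. Of 67 members, 24 were called in at least 1 of the 3 comparisons and 43 in none. The matching share of all peaks was not counted, so these numbers are not read as a trait of the members. Taken singly, AA against vehicle called 30.5% of all peaks, PGE2 against vehicle 24.9% and AA against PGE2 9.9%.

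Counts summed over all peaks of a gene gave each locus 1 value, tested by edgeR over 16762 genes. With AA 3 of 7 loci rose and 0 fell (0 lower by DESeq2 and 0 at an unadjusted p under 0.05), where 16.3% of all gene sums were called higher and 15.9% lower. Epha2 held 352 and 347 summed CPM with AA, 308 and 287 with PGE2 and 301 and 303 with vehicle. This was a 1.16-fold rise with AA (log2 0.21 ± 0.03, SE, adjusted p = 8.06e-05, edgeR). PGE2 gave -0.02 ± 0.03 (adjusted p = 0.64, edgeR). Both AA libraries were above all others. Efnb2 held 284 and 284 summed CPM with AA, 260.3 and 258 with PGE2 and 252 and 248 with vehicle. This was a 1.14-fold rise with AA (log2 0.18 ± 0.03, SE, adjusted p = 1.39e-04, edgeR). PGE2 gave 0.05 ± 0.03 (adjusted p = 0.189, edgeR). Efna1 held 259 and 259.6 summed CPM with AA, 237 and 228 with PGE2 and 234 and 245 with vehicle. It had a smaller rise with AA (log2 0.12 ± 0.03, SE, adjusted p = 0.0125, edgeR) that was not called by DESeq2 or without vehicle replicate 1, AA replicate 1 or AA replicate 2.

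With PGE2 1 of the 7 loci was called by edgeR, Ephb2, where 20.8% of all gene sums were called higher and 17.7% lower. Ephb2 held 352 and 342 summed CPM with AA, 341 and 316 with PGE2 and 364 and 363 with vehicle. It fell with PGE2 by 0.15 ± 0.03 (log2, SE, adjusted p = 0.00212, edgeR), a call kept under every alternative run. The log2 change with AA was -0.07 ± 0.03 (adjusted p = 0.13, edgeR). All 4 treated libraries lay below both vehicle libraries, although the start-site peak of the same gene rose. In AA against PGE2, Epha2, Efna1 and Efnb2 were higher with AA by 0.23 ± 0.03, 0.16 ± 0.03 and 0.13 ± 0.03 (log2, SE, adjusted p = 1.85e-04, 0.00407 and 0.00592, edgeR), where 8.70% of all gene sums were called higher and 8.96% lower. The call for Efnb2 was lost with DESeq2 (adjusted p = 0.0621). Ephb3, Ephb4 and Epha1 were called in no comparison, with mean sums of 271, 99.4 and 58.5 CPM in AA, 285, 97.9 and 57.5 CPM in PGE2 and 277, 105.5 and 55.6 CPM in vehicle organoids.

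**Figure D5:**
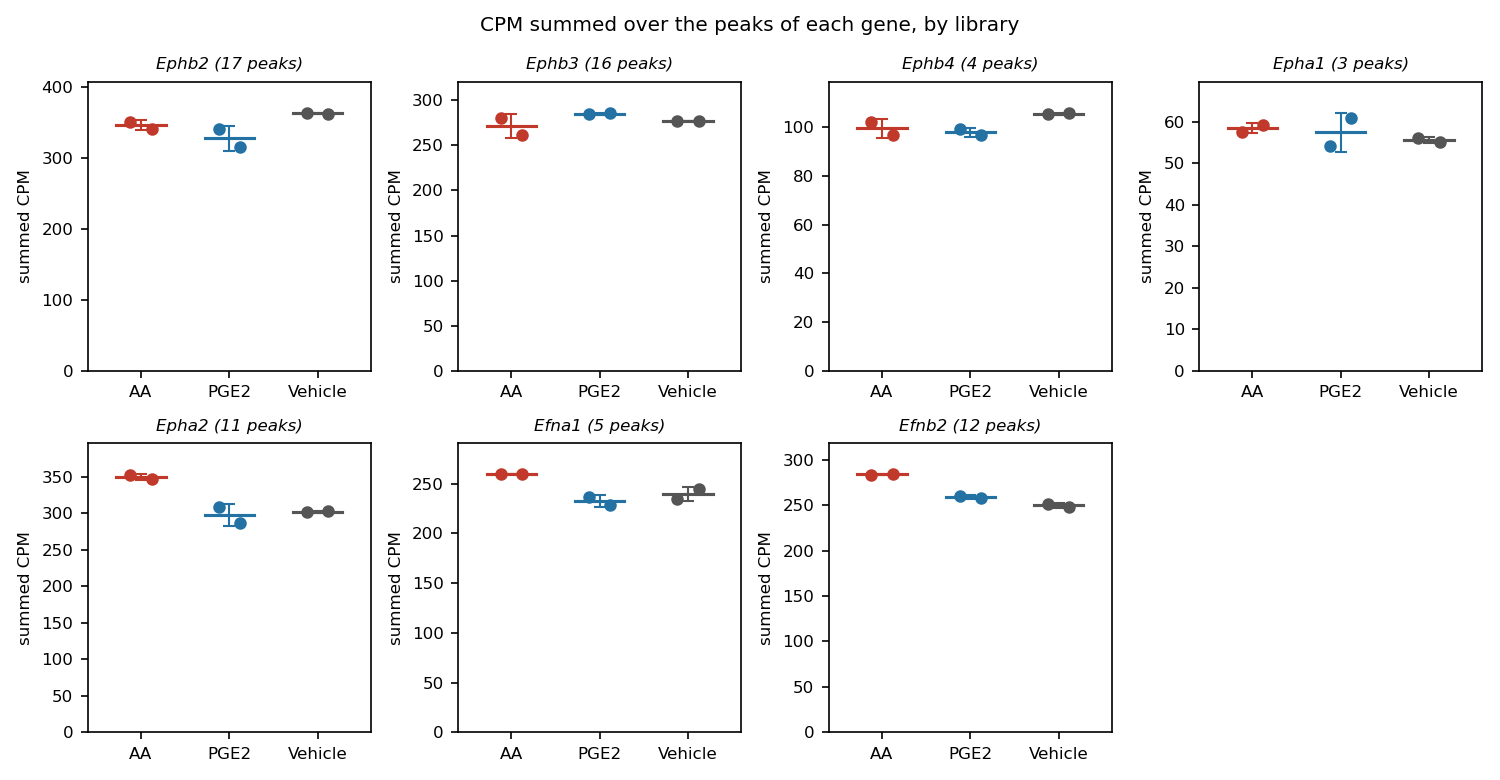
CPM summed over all peaks assigned to each gene (vertical axis, from 0) in the AA, PGE2 and vehicle libraries, titled by gene and number of peaks. Points are libraries, lines the mean and bars the SD of 2 libraries. The AA libraries are the highest at Epha2, Efna1 and Efnb2, and the vehicle libraries are the highest at Ephb2 and Ephb4.

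For each locus the genes of most similar profile were sought among 9768 genes with at least 3 peaks, by the Euclidean distance, in log2 units, between centred log2 sums over the 6 libraries. Efna1 had the closest, Fbp2 at 0.0161 and Lgals4 at 0.0167. Among those for Epha2 was Ccng2 at 0.0417. For Efnb2 they were Prag1 at 0.0297 and Usp6nl at 0.0327, for Ephb3 Sema6c at 0.0296 and Mmp11 at 0.0356, and for Ephb4 Dcakd at 0.0278 and Itga6 at 0.0315. Ephb2 was nearest to Tcf4 at 0.0383 and Gm40369 at 0.0387, and Epha1 to Nol11 at 0.0425 and Mon2 at 0.043.

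The other 15 Eph and ephrin genes had peaks at 12 of them, 48 in all with 47 tested (Epha6, Epha10 and Efnb3 had none). With AA 3 of these were called higher and 14 lower by edgeR, with PGE2 4 higher and 8 lower, and in AA against PGE2 2 higher and 5 lower, with median log2 changes of -0.21 (AA), -0.13 (PGE2) and -0.08 (AA against PGE2). These are 6.38% higher and 29.8% lower with AA (all peaks 16.7% and 13.8%), 8.51% and 17.0% with PGE2 (all peaks 14.3% and 10.6%) and 4.26% and 10.6% in AA against PGE2 (all peaks 5.06% and 4.88%). DESeq2 called 1 higher and 1 lower with AA, 3 higher and 0 lower with PGE2 and 0 either way in AA against PGE2. Epha3, a receptor best known in neural tissue, had a peak at its gene end (chr16:63863748-63864798) with 2.46 and 2.61 CPM with AA, 3.51 and 2.55 with PGE2 and 4.98 and 6.71 with vehicle. Its log2 change with AA was -1.20 ± 0.21 (SE, adjusted p = 1.47e-05, edgeR), and both vehicle libraries were the highest. Ephb6, a receptor without kinase activity, had a peak at chr6:41576527-41576935 with 2.81 and 4.16 CPM with AA, 3.05 and 3.32 with PGE2 and 1.53 and 0.687 with vehicle. It was higher with AA (log2 1.63 ± 0.31, SE, adjusted p = 5.11e-05, edgeR) and with PGE2 (log2 1.51 ± 0.31, SE, adjusted p = 2.47e-04, edgeR). The centre of this Ephb6 peak lay 27103 bp from the nearest end of the gene. A gene-end peak of the A ephrin gene Efna4 held 17.5 and 18.4 CPM with AA, 25.2 and 26.6 with PGE2 and 18.5 and 17.2 with vehicle. One of Efna3, another A ephrin gene, held 17.2 and 17.3 CPM with AA, 23.4 and 26.9 with PGE2 and 17.9 and 17.9 with vehicle, so the PGE2 libraries were the highest at both. Against vehicle their log2 changes with PGE2 were 0.54 ± 0.09 (SE, adjusted p = 2.38e-05, edgeR) for Efna4 and 0.49 ± 0.10 (SE, adjusted p = 1.32e-04, edgeR) for Efna3. Of all gene-end peaks 31.0% were called higher and 5.58% lower with PGE2.

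Of 21 listed genes that act with Eph receptors, such as adaptors, exchange factors and Src family kinases, 20 had peaks (Acp1 had none), 160 in all with 156 tested. With AA 30 were called higher and 20 lower by edgeR, with PGE2 26 higher and 8 lower, and in AA against PGE2 11 each way, with median log2 changes of 0.04 (AA), 0.05 (PGE2) and -0.003 (AA against PGE2). These are 19.2% higher and 12.8% lower with AA, near the 16.7% and 13.8% of all peaks. They are 16.7% and 5.13% with PGE2 (all peaks 14.3% and 10.6%) and 7.05% each way in AA against PGE2 (all peaks 5.06% and 4.88%). DESeq2 called 14 higher and 4 lower with AA, 13 and 0 with PGE2 and 2 and 1 in AA against PGE2. Src, a kinase recruited by Eph receptors, had a peak at chr2:157412166-157413101 with 14.4 and 13.6 CPM with AA, 7.86 and 7.72 with PGE2 and 5.74 and 5.11 with vehicle. Its log2 change with AA was 1.37 ± 0.14 (SE, adjusted p = 6.61e-11, edgeR). The AA libraries stood apart from both other groups. Tjp1, a tight junction scaffold, had a peak at chr7:65482196-65482507 with 9.29 and 9.95 CPM with AA, 7.02 and 7.18 with PGE2 and 2.99 and 3.43 with vehicle. It was higher with AA (log2 1.58 ± 0.17, SE, adjusted p = 3.57e-10, edgeR) and with PGE2 (log2 1.14 ± 0.18, SE, adjusted p = 3.15e-06, edgeR). Tiam1, an activator of Rac, had a peak at chr16:90181095-90182122 with 27 and 27.7 CPM with AA, 37.2 and 37.4 with PGE2 and 40.0 and 43.6 with vehicle, where the AA libraries were the lowest (log2 change against vehicle -0.61 ± 0.08, SE, adjusted p = 2.25e-08, edgeR). The centres of these Src, Tjp1 and Tiam1 peaks lay 11272, 45498 and 36008 bp from the nearest end of the gene.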

How the data were processed

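The deposited table holds raw counts per consensus peak for 6 ATAC-seq libraries, 2 per group, made by the authors. The counting was done by featureCounts 1.6.3 per the file headers, on pairs, by the 5′ ends of reads, without strand, with every overlapped peak receiving the pair. Per the submitters' processing notes, Trim Galore, BWA, Picard, SAMtools and MACS2 were used with build mm10; the sources used here give neither their settings nor any shift of reads for the transposase. Open chromatin outside the peak set has no value. The deposited peak lengths served only for levels per kb.

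A peak belonged to the closest protein-coding gene, by distance of its centre to a gene end, up to 50 kb (RefSeq, GRCm38.p6, the assembly of mm10; 72328 peaks, 21883 genes considered), and a peak may act on another gene. Start sites and strands came from RefSeq promoter windows, which matched all 7 genes; exons and introns were not used here. All 6 libraries entered 1 fit of edgeR 4.0.16 (R 4.3.3; TMM factors 0.969 to 1.02, filterByExpr, robust quasi-likelihood F-test, 3 residual degrees of freedom, median of 42.3 prior degrees of freedom) over 89347 peaks, and likewise over 16762 gene sums, with Benjamini-Hochberg adjustment at 0.05. Standard errors are those implied by the F statistic. CPM were computed on TMM-scaled totals. Within groups, counts varied 1.12 (AA), 1.55 (PGE2) and 1.09 (vehicle) times as much as sampling alone (chi-square per degree of freedom). Fits were tested on simulated data.

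Peaks named are, per gene, the strongest, those within 1 kb of an end and the largest called change in each comparison; the remaining called peaks, and the peaks inside Ephb2 that are not members, were added after their values were seen. From the 2 pathway lists the 3 called peaks of smallest p in each comparison could be named. The members and lists were chosen with earlier results of these data known. Alternatives were other scalings, DESeq2 1.42.0, no filter, only the groups compared, a replicate block, each library left out and other assignment rules. A gene of similar profile to Epha2 is not reported here.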

Additional observations from a re-analysis of the deposited data

How the results depend on the processing

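Of the counts of calls recomputed under the alternatives, 126 stayed within 1.5 times their value and 39 did not, and of single peaks and loci 1035 kept direction and call, 14 gained a call, 55 lost it and 1 reversed. DESeq2 called fewer: 8991 peaks and 2503 gene sums for AA against vehicle (edgeR 27281 and 5403), 7361 and 3191 for PGE2 against vehicle (22257 and 6452), and 582 and 779 for AA against PGE2 (8886 and 2960), and of members 6 higher and 0 lower, 1 and 0, and 1 and 0. On library totals the members called lower were 7 with AA and 7 with PGE2. Among all peaks lower calls rose too, from 12370 to 14324 with AA and from 9448 to 12127 with PGE2. With gene-end peaks scaled apart from the rest, 1 member was lower in AA against PGE2, and the outer start site of Efna1 reversed to a log2 change of -0.16 with PGE2; the cause was not tested. That scaling was not run on gene sums, which mix both kinds of peak. Within 10 kb of a gene, a rule that leaves fewer peaks, 9 members were higher and 3 lower with AA. With PGE2 6 were higher and 1 lower, and in AA against PGE2 1 was higher and 0 lower. With peaks inside the genes added, a rule that takes in more peaks, 8 were lower with AA. Shares of the peaks under these rules were not computed, so these counts are not read as a change in share.

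Leaving out each library in turn gave 18219 to 30456 peaks and 3140 to 6852 gene sums for AA against vehicle, with 10 to 16 members higher and 1 to 6 lower. It gave 13667 to 21329 peaks and 3684 to 6897 gene sums for PGE2 against vehicle, with 4 to 8 members higher and 1 to 7 lower, and 3072 to 9643 peaks and 805 to 4395 gene sums for AA against PGE2, with 2 to 5 higher and 0 to 2 lower. The lone library left in a group was assumed to vary like the others. The Ephb2 locus was called lower with AA with only the AA and vehicle libraries in the fit (adjusted p = 0.0475, edgeR), and higher in AA against PGE2 without PGE2 replicate 1 (0.00153).

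Deviations of samples with the same replicate number had correlations of 0.00469 for vehicle with AA, -0.0198 for vehicle with PGE2 and 0.0357 for AA with PGE2. Sampling made up most of the variation within groups, which would keep such correlations low even for paired samples. These correlations therefore cannot decide whether the numbers pair the samples. With a replicate block 27630, 22672 and 9414 peaks were called for AA against vehicle, PGE2 against vehicle and AA against PGE2. The 20 tested members under 5 CPM had standard errors of 0.17 to 0.56 in log2 for AA against vehicle, so small changes were not detectable there.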
